A study of Mus musculus with 2 samples.

Results

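A list of 10 genes named for lipid-associated macrophages was followed across the nuclei of interscapular BAT (brown adipose tissue): Trem2, Spp1, Mmp12, Fat3, Slc9a4, Cd9, Fabp5, Apoe, Lgals3 and Itgax. Fat3, a large cadherin, and Slc9a4, an exchanger of sodium and protons, are not known as genes of that state. The list holds 10 of the 32285 genes in the count matrices, and they were chosen from earlier values of these same libraries, so the levels that chose them (WT against KO in immune nuclei, nuclei with Atp6v0d2 against nuclei with Lyve1 or Cd163, and immune nuclei beside other classes) are given as a description. All 10 symbols were found in both libraries and all 10 passed the minimum of 20 unique molecular identifiers (UMIs, 1 for each captured RNA molecule) over WT and KO immune nuclei. BAT of 8-week-old male mice was measured by single-nucleus RNA-seq in droplets. One library came from WT mice, which were Srsf1 flox/flox littermates without Cre, and 1 library came from KO mice, which were Adipoq-Cre; Srsf1 flox/flox, so both groups carried the floxed allele. The Adipoq promoter drives Cre in mature adipocytes, so immune cells are not its target, and how many mice were pooled per library is not given in the sources used here. With 1 library per genotype there is no replicate error, and no test was made. All intervals are 95% intervals for counting error only, and differences between mice, dissections or droplet runs cannot be told apart from genotype.

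Lipid-associated macrophages are a macrophage state of adipose tissue that gathers around stressed or dying adipocytes and takes up and breaks down their lipid. The receptor Trem2 senses lipids and signals through the adaptor Tyrobp, and cells in this state are known for galectin-3 (Lgals3), the tetraspanin Cd9, osteopontin (Spp1), the integrin Itgax (CD11c) and genes of the lysosome. Resident adipose macrophages are instead known for Lyve1, Cd163, Mrc1 and F13a1, while Atp6v0d2 encodes a subunit of the proton pump that acidifies lysosomes and is known from osteoclasts and other fusing macrophages.

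The genes lie apart in the genome, in the coordinates of GENCODE release 21 on GRCm38. Among the genes for cell surface proteins, Trem2 is at chr17:48346401-48354147, Cd9 at chr6:125460266-125494791 and Itgax at chr7:128129547-128150657. Among those for secreted proteins, Spp1 is at chr5:104435118-104441050, Mmp12 at chr9:7344381-7369499, Apoe at chr7:19696109-19699188 and Lgals3 at chr14:47367751-47386160. Fabp5, a carrier of fatty acids inside the cell, is at chr3:10012548-10016607, Slc9a4, a sodium and proton exchanger of the membrane, at chr1:40580081-40630725, and Fat3, a large cadherin, at chr9:15910189-16501285. Trem2, Fabp5, Apoe, Lgals3 and Itgax overlap no other annotated gene, whereas Spp1, Mmp12, Fat3, Slc9a4 and Cd9 overlap 1 or 2 others (Mmp1b in the case of Mmp12), and whether reads were shared with them was not tested. Fat3 spans 591 kb and Apoe 3.08 kb, and a longer gene can give more UMIs in nuclei, so levels are compared between groups for 1 gene and not between genes.

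The promoters of the 10 genes were looked up in RefSeq on GRCm38.p6 (250 bases before to 50 after each start, 12 windows for 8 of the 10 genes; Slc9a4 and Fabp5 have none). They were searched on both strands for TGANTCA (AP-1), GAGGAAG (PU.1), TTGCNNAA (C/EBP), CACGTG (the E-box, known as a site of MiT/TFE factors such as Mitf) and the direct repeat known from PPAR and RXR. The windows of Trem2, Mmp12 and Itgax, which were higher in nuclei with Atp6v0d2, and of Spp1, which was lower in KO, are shown with the matches in capitals, whichever strand they are on. The Trem2 window is chr17:48346151-48346450, the Mmp12 windows are chr9:7344147-7344446 and chr9:7347124-7347423, the Itgax window is chr7:128129300-128129599 and the Spp1 window is chr5:104434861-104435160, all on the plus strand.
Trem2: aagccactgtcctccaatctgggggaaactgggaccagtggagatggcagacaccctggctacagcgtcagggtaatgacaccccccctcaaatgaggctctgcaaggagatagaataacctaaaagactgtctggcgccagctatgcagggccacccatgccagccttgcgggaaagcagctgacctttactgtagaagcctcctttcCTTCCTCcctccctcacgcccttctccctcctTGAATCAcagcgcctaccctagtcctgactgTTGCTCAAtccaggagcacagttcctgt
Mmp12, first window: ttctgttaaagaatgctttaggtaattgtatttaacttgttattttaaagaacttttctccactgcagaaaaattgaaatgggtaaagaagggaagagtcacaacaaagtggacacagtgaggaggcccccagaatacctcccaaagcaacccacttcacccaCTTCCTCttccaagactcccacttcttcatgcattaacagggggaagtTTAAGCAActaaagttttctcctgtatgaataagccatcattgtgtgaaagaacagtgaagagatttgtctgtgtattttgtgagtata
Mmp12, second window: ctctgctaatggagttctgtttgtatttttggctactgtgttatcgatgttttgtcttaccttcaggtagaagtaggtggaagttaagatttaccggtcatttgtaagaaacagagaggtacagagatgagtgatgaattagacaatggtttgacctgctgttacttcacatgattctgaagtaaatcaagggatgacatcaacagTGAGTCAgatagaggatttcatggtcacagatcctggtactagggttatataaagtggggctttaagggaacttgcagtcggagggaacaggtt
Itgax: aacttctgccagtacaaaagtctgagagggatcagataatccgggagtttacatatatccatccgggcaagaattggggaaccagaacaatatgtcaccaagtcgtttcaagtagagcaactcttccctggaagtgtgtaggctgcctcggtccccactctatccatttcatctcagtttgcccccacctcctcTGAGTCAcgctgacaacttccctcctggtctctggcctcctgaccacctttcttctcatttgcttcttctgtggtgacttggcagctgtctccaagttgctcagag
Spp1: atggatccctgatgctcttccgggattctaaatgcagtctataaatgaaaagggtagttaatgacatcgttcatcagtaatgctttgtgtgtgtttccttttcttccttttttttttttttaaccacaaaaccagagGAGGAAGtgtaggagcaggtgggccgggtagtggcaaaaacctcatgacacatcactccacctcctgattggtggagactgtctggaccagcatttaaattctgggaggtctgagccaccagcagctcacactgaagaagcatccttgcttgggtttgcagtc

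The Trem2 window holds CTTCCTC (PU.1 on the other strand), TGAATCA (AP-1) and TTGCTCAA (C/EBP). Over the 32851 windows of the table, AP-1 letters were in 7.81%, PU.1 letters in 13.6%, C/EBP letters in 10.8%, the E-box in 7.15% and the PPAR and RXR repeat in 0.0396%. AP-1 letters were found for Trem2, Mmp12 and Itgax, and PU.1 and C/EBP letters each for Trem2, Mmp12 and Spp1 (the C/EBP letters of Spp1 in a second window that is not shown), while no window of the 8 genes held the E-box or the PPAR and RXR repeat. A match is a run of letters and not a measured site.

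Before the levels, the libraries were checked. The matrices held 24341 barcodes, 12846 in WT with 93102814 UMIs (median 3439.5 per barcode) and 11495 in KO with 80090208 UMIs (median 4363), and 24149 nuclei were kept. The libraries shared 52 barcodes, 0.405% of those in WT and 0.452% of those in KO. Srsf1, the targeted gene, was at 189.8 CPM (UMIs per 1000000 UMIs of the group) in WT adipocytes and 60.05 CPM in KO adipocytes, 3.16-fold lower. In immune nuclei Srsf1 was at 142 CPM in WT and 65.5 CPM in KO, 2.17-fold lower. Adipocyte transcripts were also higher in WT immune nuclei (the 8 adipocyte markers summed to 8743 CPM, against 3285 CPM in KO), and their part in the lower Srsf1 was not tested.

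Immune nuclei were those with at least 4 UMIs of Dock2, Ptprc, Adgre1 and Mrc1 together, which gave 1132 of 12771 nuclei in WT (8.86%) and 5041 of 11378 in KO (44.3%). The macrophage markers outside the gate were present in both, with Csf1r, the receptor for the macrophage growth factor, at 74.4 CPM in WT and 159 CPM in KO and Lyz2, a lysozyme, at 54.1 and 108.7 CPM. These immune nuclei were not equally clean. In WT, 462 of them formed a subcluster of deep nuclei (median 18196.5 UMIs, led by Fgf14 and Dio2), Ucp1, the uncoupling protein of brown adipocytes, was at 1112 CPM against 24.9 CPM in KO, and 249 nuclei reached the gate with under 1 gate UMI per 1000 UMIs against 264 in KO. A UMI of Adipoq, Plin1 or Cidec was found in 77.2% of WT immune nuclei and 39.1% of KO immune nuclei, beside 78.7% and 46.3% of all nuclei. Transcripts of 6 mitochondrial genes summed to 4421 CPM in WT and 580 CPM in KO immune nuclei. In KO, 1045 immune nuclei lay in a deep cluster (median 13606 UMIs), of which 90.05% were called doublets by Scrublet. This caller marked 20.4% of KO and 0.00783% of WT kept nuclei. Whether it missed doublets in WT was not tested, so few calls in WT are not read as few doublets. The values are therefore given over all immune nuclei and also over those in macrophage-like clusters, 570 in WT (50.4%) and 3022 in KO (59.9%), a restriction chosen after the data had been seen. It did not remove the adipocyte transcripts: in these clusters the 8 adipocyte markers summed to 6270 CPM in WT and 1295 CPM in KO, beside 4417 and 7423 CPM for the 8 macrophage markers, and 68.6% of WT and 24.2% of KO nuclei had a UMI of Adipoq, Plin1 or Cidec. Most of the WT nuclei in these clusters (447) were in cluster 12 and most of the KO nuclei in clusters 10 (1587) and 11 (1272). Cluster 12 was called macrophage-like from its markers, but its leading genes were Slfn4, Gpr141, Padi4, Cd5l and Il1b. At Leiden resolution 1 a cluster of 521 WT and 33 KO nuclei, led by Gpr141, Il1b and Slfn4 with Spp1 and S100a9 among its 10 leading genes, was closest to the neutrophil markers. In the macrophage-like clusters the 4 neutrophil markers summed to 76.7 CPM in WT and 38.1 CPM in KO, both led by Csf3r, with S100a8 and S100a9 at 0 in KO. The WT levels given for macrophage-like clusters rest mostly on cluster 12. In KO, 77.9% of the 163 immune nuclei in cluster 12 were called doublets. Their 7 endothelial markers summed to 2155 CPM, against 797 CPM in WT, which bears on every KO value given for that cluster. Just outside and just inside the gate, at 3 and at 4 gate UMIs, KO nuclei had 117 and 191 CPM of Lgals3 and 21.02 and 58.2 CPM of Mmp12, and WT nuclei 48.1 and 44.0 CPM of Lgals3.

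In immune nuclei, 7 of the 10 genes were at least 2-fold higher in KO than in WT, 1 was at least 2-fold lower and 2 lay within 2-fold. The same contrast chose the genes, so nothing is read from the count. Over all 17891 genes with at least 20 UMIs, 14.5% were at least 2-fold higher and 18.8% at least 2-fold lower. The median log2 ratio of the 10 genes was 1.96 and that of all genes 0.03. At 4-fold, 4 of the 10 were higher, beside 3.96% of all genes. Fat3 had the highest and Mmp12 the second highest ratio of the 12453 genes with at least 200 UMIs in all and 20 in each library, Slc9a4 was at place 6 and Itgax at place 11, while Spp1 was at place 12206.

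Of the surface proteins, Trem2 was at 9.49 CPM in WT (95% interval 8.04 to 11.1, 152 UMIs) and 22.3 CPM in KO (20.9 to 23.8, 926 UMIs). The log2 ratio of Trem2 was 1.23 (0.98 to 1.49), and the intervals of the levels did not overlap. The ratio depended on the selection: in macrophage-like clusters Trem2 was at 18.3 and 36.3 CPM (log2 ratio 0.99), and without nuclei that carried a UMI of Adipoq, Plin1 or Cidec its log2 ratio was 0.02. Itgax, the alpha chain of CD11c, was at 2.31 CPM in WT (37 UMIs in 29 nuclei) and 36.2 CPM in KO (1503 UMIs in 794 nuclei), 15.7-fold higher, and 12.7-fold higher in macrophage-like clusters. Its log2 ratio of 3.97 was 2.54 without nuclei with adipocyte transcripts and 2.26 after thinning to 1000 UMIs. Cd9, a tetraspanin, was at 13.6 CPM in WT and 53.2 CPM in KO, 3.91-fold higher, and at 11.5 and 64.7 CPM in macrophage-like clusters. Both were thus higher in KO under either selection.

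Among the secreted proteins the genes parted. Mmp12, an elastase of macrophages, was at 4.75 CPM in WT (76 UMIs in 17 nuclei, of which the top 10 held 86.8%) and 184 CPM in KO (7632 UMIs in 1099 nuclei), 38.7-fold higher. Lgals3, a lectin that binds sugars on other proteins, was at 111 CPM in WT and 429 CPM in KO, 3.87-fold higher, and was detected in 43.8% of WT and 63.2% of KO nuclei. In macrophage-like clusters Lgals3 was at 239 and 664 CPM, and without nuclei with adipocyte transcripts its log2 ratio was 0.60. Most Mmp12 UMIs in WT thus came from few nuclei, while Lgals3 was detected widely in both libraries.

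Apoe and Spp1 did not follow them. Apoe, a carrier of cholesterol, was at 68.2 CPM in WT and 102.8 CPM in KO, a log2 ratio of 0.59 (0.50 to 0.69), and its direction turned with the selection: the log2 ratio was -0.63 without nuclei with adipocyte transcripts. Spp1, a matrix protein, was at 19.2 CPM in WT and 2.87 CPM in KO, 6.69-fold lower, and 8.06-fold lower in macrophage-like clusters (42.9 and 5.32 CPM). There, 170 of the 183 WT UMIs of Spp1 were in cluster 12, at 47.9 CPM, and KO had none in 163 nuclei, where a count of 0 allows up to 2.49 CPM. Of those 163 KO nuclei, 77.9% were called doublets. In cluster 10 Spp1 was at 6.83 CPM in WT and 0.878 CPM in KO (4 and 6 UMIs), with intervals that overlapped, and in cluster 11 at 70.9 and 10.6 CPM (9 and 74 UMIs), with intervals that did not. Spp1 UMIs were held by few nuclei in both libraries: 95 WT and 59 KO nuclei had any, the 10 nuclei with most held 52.8% and 53.8% of them, and 1 WT nucleus had 36. Over all immune nuclei, Spp1 was the 1 gene of the 10 that was lower in KO by more than 2-fold.

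Of the remaining genes, Fat3 was at 4.18 CPM in WT (67 UMIs in 30 nuclei) and 253 CPM in KO (10519 UMIs in 1580 nuclei), 60.6-fold higher. Slc9a4 was at 1.75 CPM in WT (28 UMIs in 15 nuclei) and 31.8 CPM in KO, 18.2-fold higher, and its log2 ratio of 4.18 was 2.60 without nuclei with adipocyte transcripts. Fabp5 was at 13.6 CPM in WT and 14.6 CPM in KO, and its log2 ratio of 0.10 had an interval on both sides of 0 (-0.12 to 0.33). Without nuclei with adipocyte transcripts the log2 ratio of Fabp5 was -1.20, past 2-fold lower, and after thinning -0.85. In macrophage-like clusters Fat3 stayed 58.9-fold and Slc9a4 10.4-fold higher, and the log2 ratio of Fabp5 was -0.35 (-0.71 to 0.03). There, 6 of the 10 genes were at least 2-fold higher and 1 lower, beside 9.25% and 20.7% of all genes. The 8 macrophage markers, 4 of them the gate genes, summed to 2100 CPM in WT immune nuclei and 4682 CPM in KO, led by Mrc1 and Dock2, while the 8 adipocyte markers summed to 8743 and 3285 CPM, both led by Pparg. The part of these in the ratios was not tested.

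**Figure D1:**
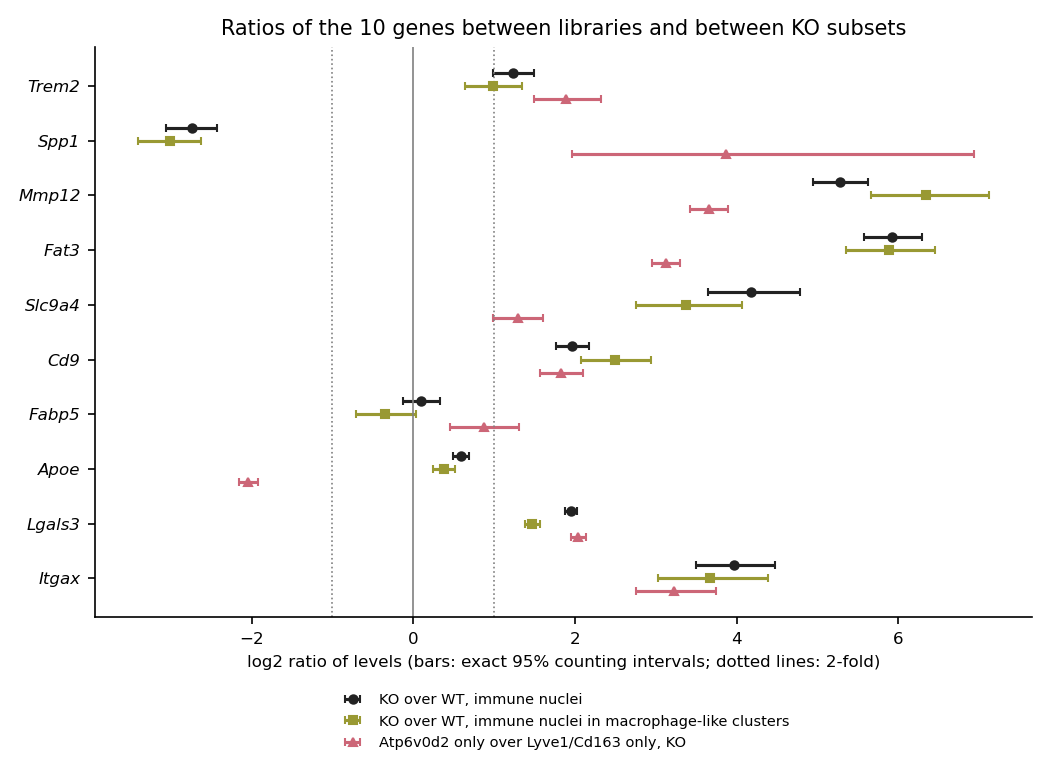
Log2 ratio (x axis) of each of the 10 genes (y axis) for KO over WT in all immune nuclei (circles), KO over WT in immune nuclei of macrophage-like clusters (squares), and KO nuclei with Atp6v0d2 over KO nuclei with Lyve1 or Cd163 (triangles), with exact 95% counting intervals as bars and 2-fold as dotted lines. Spp1 lies at -2.74 for KO over WT and at 3.87 between the KO subsets, and Apoe at 0.59 and -2.04.

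Immune nuclei were then split by whether they had a UMI of Lyve1 or Cd163, of Atp6v0d2, of both or of neither. Atp6v0d2 was detected in 92 of 1132 WT nuclei (8.13%) and 2437 of 5041 KO nuclei (48.3%). In WT, 567 nuclei had Lyve1 or Cd163 only (50.1%), 47 had Atp6v0d2 only (4.15%), 45 had both and 473 neither. In KO the same subsets held 794 (15.8%), 1826 (36.2%), 611 and 1810 nuclei. In endothelial nuclei, which are not known to use Atp6v0d2, it was detected in 0.447% (WT) and 10.4% (KO) at median depths of 2349 and 2018.5 UMIs, against 6550.5 and 5111 UMIs in immune nuclei. When every nucleus was thinned to 1000 UMIs, Atp6v0d2 was detected in 3.07% of WT and 23.7% of KO immune nuclei.

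Within KO, 8 of the 10 genes were at least 2-fold higher in nuclei with Atp6v0d2 only than in nuclei with Lyve1 or Cd163 only, beside 4.66% of 15292 genes. Fabp5 was 1.83-fold higher, and Apoe was 4.12-fold lower, beside 3.90% of genes at least 2-fold lower. At 4-fold, 5 of the 10 were higher with Atp6v0d2, beside 1.18% of genes. This contrast is also part of the choice of the genes, and nothing is read from the count. Of the 10 genes, Mmp12 had the widest gap among those with at least 20 UMIs in each subset, at 324 CPM (5294 UMIs) against 25.7 CPM (155 UMIs), 12.6-fold, the second highest ratio of 9524 genes after Il7r, a cytokine receptor. Fat3 was at 407 against 46.6 CPM, Lgals3 at 677 against 165 CPM and Cd9 at 76.7 against 21.5 CPM. Trem2 was at 33.3 against 8.95 CPM (3.72-fold), Itgax at 57.4 against 6.13 CPM (9.35-fold) and Slc9a4 at 40.2 against 16.4 CPM (2.45-fold). Spp1 rested on 79 against 2 UMIs. Apoe went the other way, at 59.5 against 245 CPM. In macrophage-like clusters all but Apoe were at least 2-fold higher with Atp6v0d2, Fabp5 included at 24.6 against 5.54 CPM (4.45-fold), beside 7.01% of genes, and Apoe was at 76.9 against 415 CPM, beside 6.46% of genes at least 2-fold lower. The count depended on the reference. Against all KO immune nuclei with neither, 4 of the 10 were at least 2-fold higher with Atp6v0d2 only, 6 lay within 2-fold and none was lower. The share of all genes at 2-fold is not given for this contrast, so nothing is read from that count. The median log2 ratio of the 10 genes was then 0.95 and that of all genes -0.05. Slc9a4 was at 40.2 against 36.0 CPM in that contrast.

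Within WT, where the Atp6v0d2 subset had 47 nuclei and 515935 UMIs, 6 of the 8 genes that reached 20 UMIs were at least 2-fold higher there than in WT nuclei with Lyve1 or Cd163 only, beside 10.8% of genes, and none was at least 2-fold lower, beside 8.18%. Trem2 was at 29.1 CPM (15 UMIs) against 7.55 CPM, a log2 ratio of 1.95 (1.04 to 2.76), close to its 1.90 (1.49 to 2.33) in KO. Lgals3 was at 698 against 69.1 CPM, Mmp12 at 42.6 (22 UMIs) against 0.850 CPM (8 UMIs) and Fabp5 at 50.4 against 10.7 CPM. Apoe was at 83.3 against 74.0 CPM, within 2-fold, unlike in KO. Fat3 had no UMI in the WT Atp6v0d2 subset, where a count of 0 allows up to 5.81 CPM, and 33 UMIs (3.51 CPM) in the other, so a difference was not detectable at this depth. Trem2, Lgals3, Mmp12, Fabp5, Cd9 and Spp1 were thus higher with Atp6v0d2 than with Lyve1 or Cd163 in both libraries, and Fat3 in KO. Spp1 rested on few UMIs in KO. The split is part of the choice of the genes, so this is a description.

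Set side by side subset by subset, the libraries differed less for some genes than over all immune nuclei. For nuclei with Atp6v0d2 only, Lgals3 was at 698 CPM in WT and 677 CPM in KO, with a log2 ratio of -0.04 (-0.19 to 0.11), and Trem2 was at 29.1 and 33.3 CPM with a log2 ratio of 0.20 (-0.54 to 1.04). In the Lyve1 or Cd163 subset, however, Lgals3 was higher in KO than in WT, at the levels given above for each library. For nuclei with Lyve1 or Cd163 only, Trem2 was at 7.55 and 8.95 CPM (log2 ratio 0.25, -0.29 to 0.78), and for nuclei with neither at 10.7 and 12.5 CPM (0.22, -0.26 to 0.72). For nuclei with both it was at 11.4 and 22.5 CPM (0.99, 0.25 to 1.82). The KO over WT ratio of Trem2 over all immune nuclei was larger than the estimate in each of the 4 subsets. The interval for nuclei with both included that ratio, however. The share of nuclei with Atp6v0d2 was higher in KO and adipocyte transcripts were higher in WT. The part of either in the ratio was not tested.

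Other genes differed between the libraries inside the subsets too. Fat3 was at 46.6 CPM in KO and 3.51 CPM in WT nuclei with Lyve1 or Cd163 only, 13.3-fold higher, and in nuclei with Atp6v0d2 only at 407 CPM in KO with no UMI in WT, at least 70.0-fold higher against 3 counts in the WT subset. Mmp12 was 30.2-fold higher in KO in the Lyve1 or Cd163 subset (25.7 against 0.850 CPM) and 7.60-fold higher in the Atp6v0d2 subset (324 against 42.6 CPM). Its 25.7 CPM (21.8 to 30.1) in the former was near the level of KO endothelial nuclei, 21.3 CPM (16.7 to 26.8), with intervals that overlapped. Itgax was 7.21-fold and 4.23-fold higher, and Slc9a4 10.3-fold and 5.18-fold. In the WT Atp6v0d2 subset Slc9a4 rested on 4 UMIs in 3 nuclei (7.75 CPM, 2.11 to 19.9). Spp1 was lower in KO in the Atp6v0d2 subset, at 4.84 against 34.9 CPM. Fabp5 was 2.87-fold lower in KO in the Atp6v0d2 subset, where WT held 26 UMIs. Apoe was 3.31-fold higher in KO in the Lyve1 or Cd163 subset (245 against 74.0 CPM) and lower in the Atp6v0d2 subset (59.5 against 83.3 CPM). In the Lyve1 or Cd163 subset the 8 macrophage markers summed to 2206 CPM in WT and 5344 CPM in KO (led by Mrc1), the 5 resident macrophage markers to 1634 and 4119 CPM (led by F13a1) and the 8 adipocyte markers to 8713 and 2669 CPM (led by Pparg). Of 16 resident macrophage genes, 12 were at least 2-fold higher and none lower there (median log2 ratio 1.39), beside 13.3% and 19.1% of all genes. In the nuclei of that subset in macrophage-like clusters, 6 of the 16 were higher and 2 lower (median 0.89), beside 7.01% and 18.6%. In clusters 10, 11 and 12 taken singly, over all their immune nuclei, the medians of the resident genes were -0.36, -0.33 and -0.53, beside 0.01, -0.33 and -0.03 for all genes. The part of these markers and genes in the higher Apoe was not tested. Of the 10 genes, 6 were at least 2-fold higher and 1 lower in KO in the Lyve1 or Cd163 subset, beside 13.3% and 19.1% of genes, and 5 and 2 in the Atp6v0d2 subset, beside 10.3% and 20.6%. In the Atp6v0d2 subset the macrophage markers summed to 2669 CPM in WT and 4547 CPM in KO and the resident markers to 116 and 540 CPM. The adipocyte markers summed there to 6714 and 3370 CPM and 6 mitochondrial genes to 3801 and 393 CPM. Their part in the ratios was not tested.

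**Figure D2:**
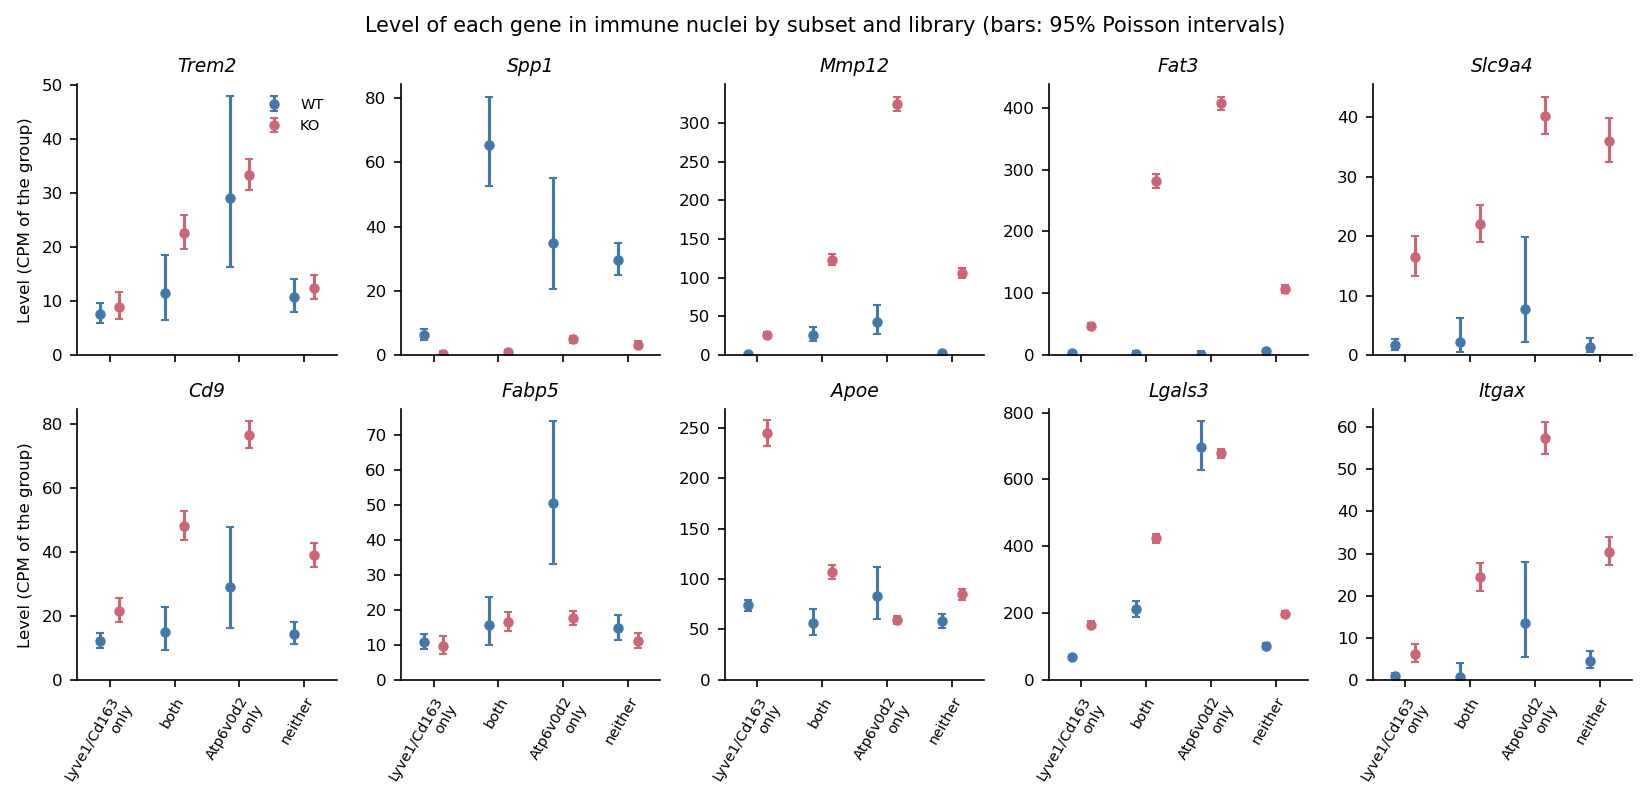
Level in CPM of the group (y axes, each from 0) of each gene in immune nuclei with Lyve1 or Cd163 only, both, Atp6v0d2 only or neither (x axis) in WT (blue) and KO (red), with exact 95% Poisson intervals as bars. Lgals3 and Trem2 reach like levels in the Atp6v0d2-only nuclei of both libraries, Fat3 is near 0 in each WT subset, and Apoe peaks at 245 CPM in KO nuclei with Lyve1 or Cd163 only.

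Levels were also read by how many Atp6v0d2 UMIs a KO nucleus had, which some of the genes followed and others did not. This contrast too is part of the choice of the genes, so the values are a description. Fat3 was at 84.1 CPM in the 2604 KO nuclei with none, 173 CPM in the 715 nuclei with 1, 188 CPM with 2, 310.2 CPM with 3 to 5 and 495 CPM in the 921 nuclei with 6 or more. Lgals3 was at 184, 268, 384, 487 and 798 CPM in the same bins and Trem2 at 11.2, 17.5, 21.9, 28.5 and 36.4 CPM. Mmp12 and Cd9 were likewise higher in each next bin, Mmp12 from 76.5 to 340 CPM and Cd9 from 32.5 to 78.9 CPM. Apoe was at 144 CPM with none and 63.9 CPM with 6 or more, and Slc9a4 lay between 28.8 and 38.7 CPM in all bins. Itgax (21.5, 21.4, 43.4, 37.2 and 59.6 CPM) and Fabp5 (10.5, 10.9, 8.84, 14.7 and 22.4 CPM) were not higher in each next bin. Neither was Spp1 (2.02, 1.51, 8.84, 1.45 and 3.94 CPM). Median depth was higher in the upper bins too, from 4169.5 to 8360 UMIs per nucleus, and its part was not tested. In WT the upper bins held 13 to 36 nuclei, and Lgals3 was at 79.6 CPM with no Atp6v0d2 UMI and 633 CPM in the 23 nuclei with 6 or more.

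**Figure D3:**
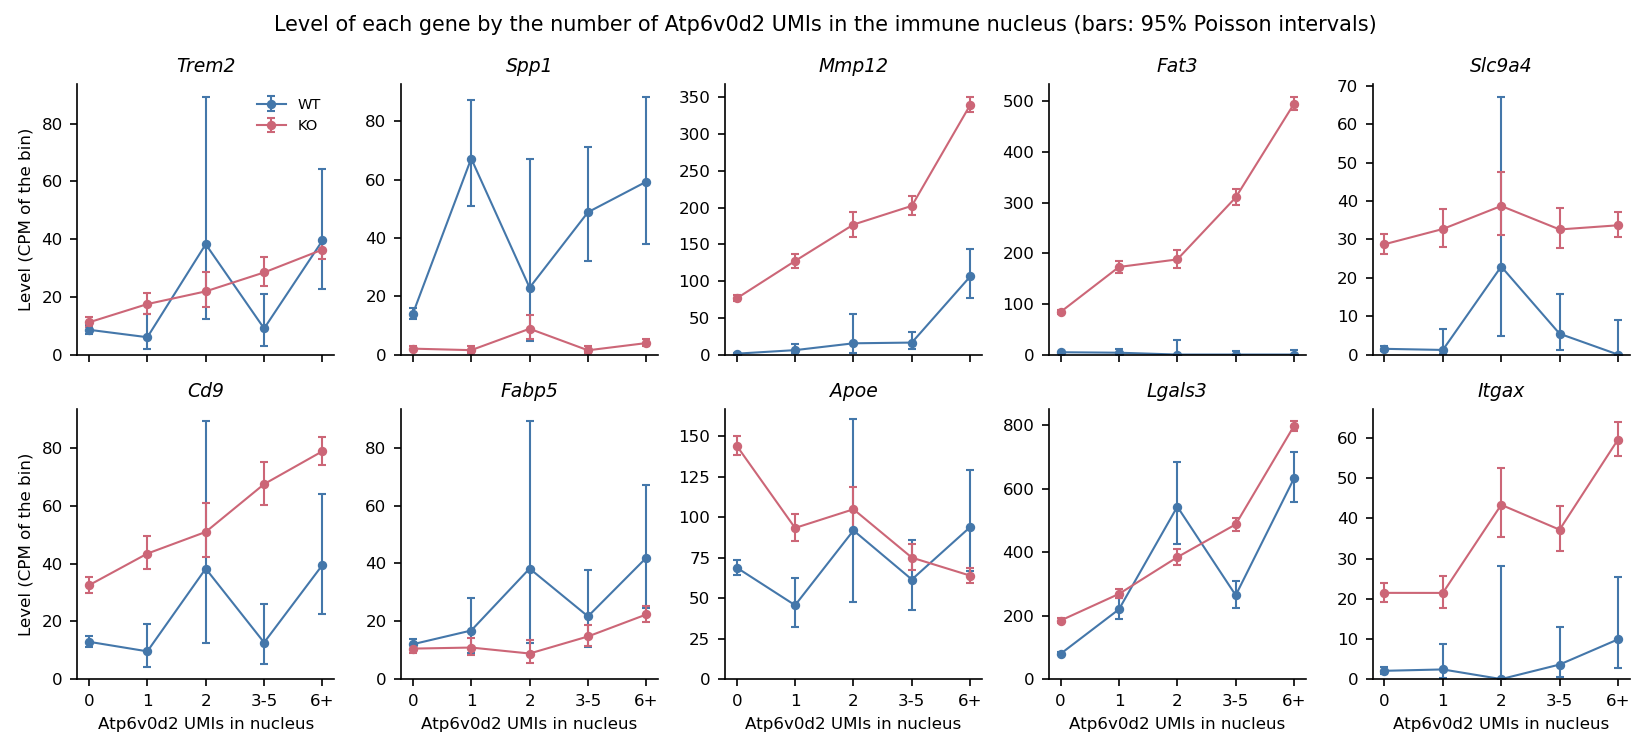
Level in CPM (y axes, each from 0) of each gene in immune nuclei binned by their Atp6v0d2 UMIs (x axis) in WT (blue) and KO (red), with exact 95% Poisson intervals as bars. In KO, Trem2, Mmp12, Fat3, Cd9 and Lgals3 are higher in each next bin, Slc9a4 is level and Apoe is lower at 6 or more (63.9 CPM) than at 0 (144 CPM), while the WT bins above 0 hold 13 to 36 nuclei and have wide bars.

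The immune nuclei were also clustered on variable genes that left out the 10 genes, the gate genes and the split genes. Levels by subcluster are given as values only, since the clusters were made from the same nuclei. Subcluster 12 (771 KO nuclei, 86.3% with Atp6v0d2) had the highest level of 6 genes: Trem2 at 81.4 CPM, Mmp12 at 753 CPM, Fat3 at 999 CPM, Cd9 at 145 CPM, Lgals3 at 1458 CPM and Itgax at 124 CPM. Subcluster 10 (402 KO nuclei, led by Thsd4, Aldh1a2 and Fn1, 31.8% with Atp6v0d2) had Mmp12 at 512 CPM, Itgax at 109 CPM and the highest Slc9a4 at 153 CPM, but Trem2 at 9.74 CPM and Fat3 at 218 CPM. Subcluster 8 (512 KO nuclei, led by Retnla and Wfdc17, 71.7% with Lyve1 or Cd163) had Apoe at 649 CPM, with Mmp12 at 14.3 CPM and Itgax at 4.10 CPM. The largest, subcluster 9 (1224 KO nuclei), had Lgals3 at 335 CPM, Apoe at 120 CPM and Mmp12 at 30.7 CPM. High Mmp12 and Itgax thus occurred with high Trem2 in 1 subcluster and with low Trem2 in another. Itgax was also at 109 CPM in a dendritic cell-like KO subcluster of 108 nuclei and at 71.1 CPM in a T or NK cell-like one of 81, where Mmp12 was at 29.5 and 12.5 CPM.

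The WT immune nuclei fell mostly into 2 subclusters. Subcluster 0 (453 WT nuclei, median 3466 UMIs, 54.7% with Lyve1 or Cd163) had Lgals3 at 365 CPM, Apoe at 193 CPM, Spp1 at 53.3 CPM, Trem2 at 31.2 CPM and Fabp5 at 29.5 CPM, and Mmp12, Fat3, Slc9a4 and Itgax each under 8 CPM (7.38, 5.67, 6.24 and 7.94 CPM). Subcluster 1 was the deep one of 462 nuclei and had 52.8 CPM of Lgals3 and 4.80 CPM of Trem2. Trem2 in WT subcluster 0 was thus above its level in KO subclusters 8, 9 and 10 (18.9, 21.4 and 9.74 CPM) and below that in KO subcluster 12. No name is given to subcluster 0, since its leading genes held both the macrophage gene Cd5l and the muscle genes Myh4, Acta1 and Ttn.

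**Figure D4:**
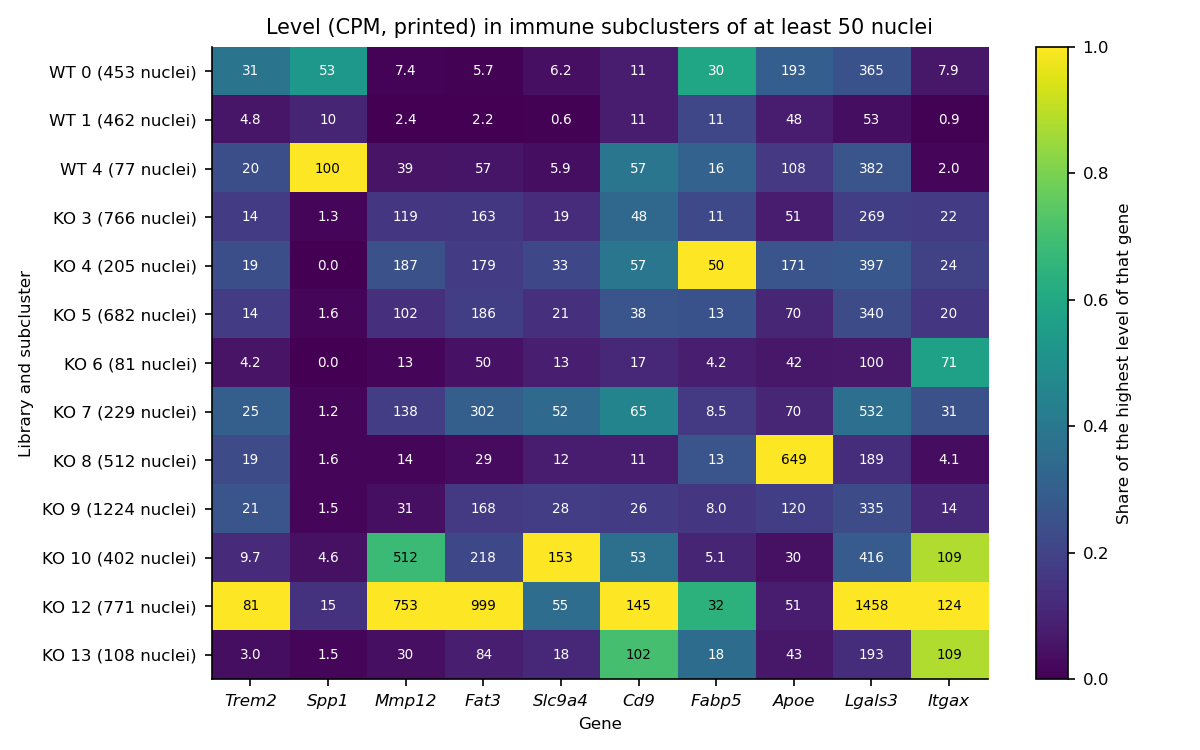
Level in CPM (numbers) of each gene (x axis) in each immune subcluster of at least 50 nuclei in 1 library (y axis), with color for the share of that gene's highest level. KO subcluster 12 holds the highest Trem2, Mmp12, Fat3, Cd9, Lgals3 and Itgax, KO subcluster 10 the highest Slc9a4 (153 CPM) and KO subcluster 8 the highest Apoe (649 CPM).

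More of the 10 genes were detected per nucleus in nuclei with Atp6v0d2. This split is part of the choice of the genes, so the numbers are a description. A higher number per nucleus can come from the level of each gene alone and does not show that genes occur together. KO nuclei with Atp6v0d2 only had a UMI of 3.08 of the 10 genes on average, against 1.54 in those with Lyve1 or Cd163 only, and 58.2% against 17.1% had 3 or more. In WT the means were 2.72 and 1.45, and 55.3% and 15.9% had 3 or more. Thinned to 1000 UMIs per nucleus, the means were 1.14 and 0.49 in KO and 0.89 and 0.29 in WT. In thinned KO nuclei of macrophage-like clusters, Lgals3 was detected in 59.5% of nuclei with Mmp12 and 31.0% of those without, and Fat3 in 36.0% of nuclei with Itgax and 16.4% without. Mmp12 was detected in 12.1% of the 116 nuclei with Trem2 and 11.1% of those without. Apoe was detected in 4.83% of nuclei with Mmp12 and 12.1% without. These nuclei are of 1 library, and the differences between the shares were not tested.

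Across the tissue, 7 of the 10 genes in WT and 8 in KO had their highest level in immune nuclei among immune, adipocyte, ASPC (adipose stem and progenitor cell), endothelial, mural and Schwann nuclei, beside 15.1% of all genes in WT and 19.9% in KO. Levels across classes are part of the choice of the genes, and nothing is read from the count. Fabp5 was highest in endothelial nuclei, at 43.5 CPM in WT and 36.4 CPM in KO. Cd9 was highest in endothelial nuclei in WT, at 52.2 CPM, and in KO was at 66.8 CPM in endothelial nuclei and 67.3 CPM in the 53 Schwann nuclei (20 UMIs). Fat3 in WT was at 15.2 CPM in mural and 13.4 CPM in ASPC nuclei (69 and 20 UMIs) and at 4.18 CPM in immune nuclei. Adipocytes in WT lay mainly in cluster 1 and in KO in cluster 22, and endothelial nuclei in WT mainly in cluster 7 and in KO in cluster 21, so these classes are not the same clusters in both libraries.

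In KO, Mmp12, Fat3 and Atp6v0d2 were also found at a low level in the other classes. Mmp12 was detected in 5.49% of KO endothelial nuclei, Fat3 in 7.50% and Atp6v0d2 in 10.4%, against 0.179%, 0.268% and 0.447% in WT. Per UMI of Mmp12, KO nuclei had 2.12 UMIs of Atp6v0d2 in immune, 2.28 in adipocyte, 2.22 in ASPC, 2.31 in endothelial and 2.61 in mural nuclei. Fat3 was at 1.38, 1.47, 1.05, 1.44 and 1.72 per Mmp12 UMI in the same classes, and Itgax, Slc9a4 and Trem2 had intervals that overlapped those of immune nuclei in all 4 other classes, apart from Trem2 in endothelial nuclei (0.25, 0.14 to 0.42, against 0.12, 0.11 to 0.13). In the other KO classes Itgax, Slc9a4 and Atp6v0d2 thus had ratios to Mmp12 whose intervals overlapped those in immune nuclei. Whether their UMIs there came from free RNA was not tested. In WT, Fat3 was found in mural and ASPC nuclei with no UMI of Mmp12. Spp1 was instead found outside immune nuclei in WT, at 6.14 CPM in endothelial, 7.35 CPM in ASPC and 2.83 CPM in adipocyte nuclei, against no UMI, 0.184 CPM and 0.361 CPM in KO. Its level of 6.17 CPM in WT immune nuclei with Lyve1 or Cd163 only was thus near that of WT endothelial nuclei.

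Lgals3 did not keep that ratio. It had 2.34 UMIs per Mmp12 UMI in KO immune nuclei and 2.72 (2.07 to 3.62) in endothelial nuclei, but 15.2 (12.6 to 18.4) in adipocytes, 4.15 in ASPC and 4.72 in mural nuclei. In adipocytes Lgals3 was at 6.12 CPM in WT (188 UMIs) and 130.2 CPM in KO (1804 UMIs), 21.3-fold higher, and was detected in 4.10% and 38.6% of nuclei at median depths of 6960 and 5991 UMIs. Cd9, Fabp5 and Apoe likewise had more UMIs per Mmp12 UMI in each of the 4 other classes than in immune nuclei. Apoe was at 36.6 and 47.8 CPM in WT and KO adipocytes, a log2 ratio of 0.38 (0.24 to 0.52), and Fabp5 at 7.42 and 14.2 CPM. Of the 10 genes, 7 were at least 2-fold higher in KO adipocytes, beside 23.3% of genes, and Spp1 was lower (2.83 and 0.361 CPM), beside 18.2%. Besides Lgals3, these were Cd9 (1.92 and 8.16 CPM) and Mmp12, with Fat3, Itgax, Slc9a4 and Trem2. For the last 4 of these, the intervals of UMIs per Mmp12 UMI in KO adipocytes overlapped those in immune nuclei. Trem2, Slc9a4 and Itgax had 24, 23 and 28 UMIs in KO adipocytes. With a minimum of 200 UMIs, 3 of the 10 genes were measured in adipocytes: 1 was higher in KO, 2 lay within 2-fold and none was lower. The count of 7 and the lower Spp1 thus rested mostly on genes with fewer UMIs than that.

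**Figure D5:**
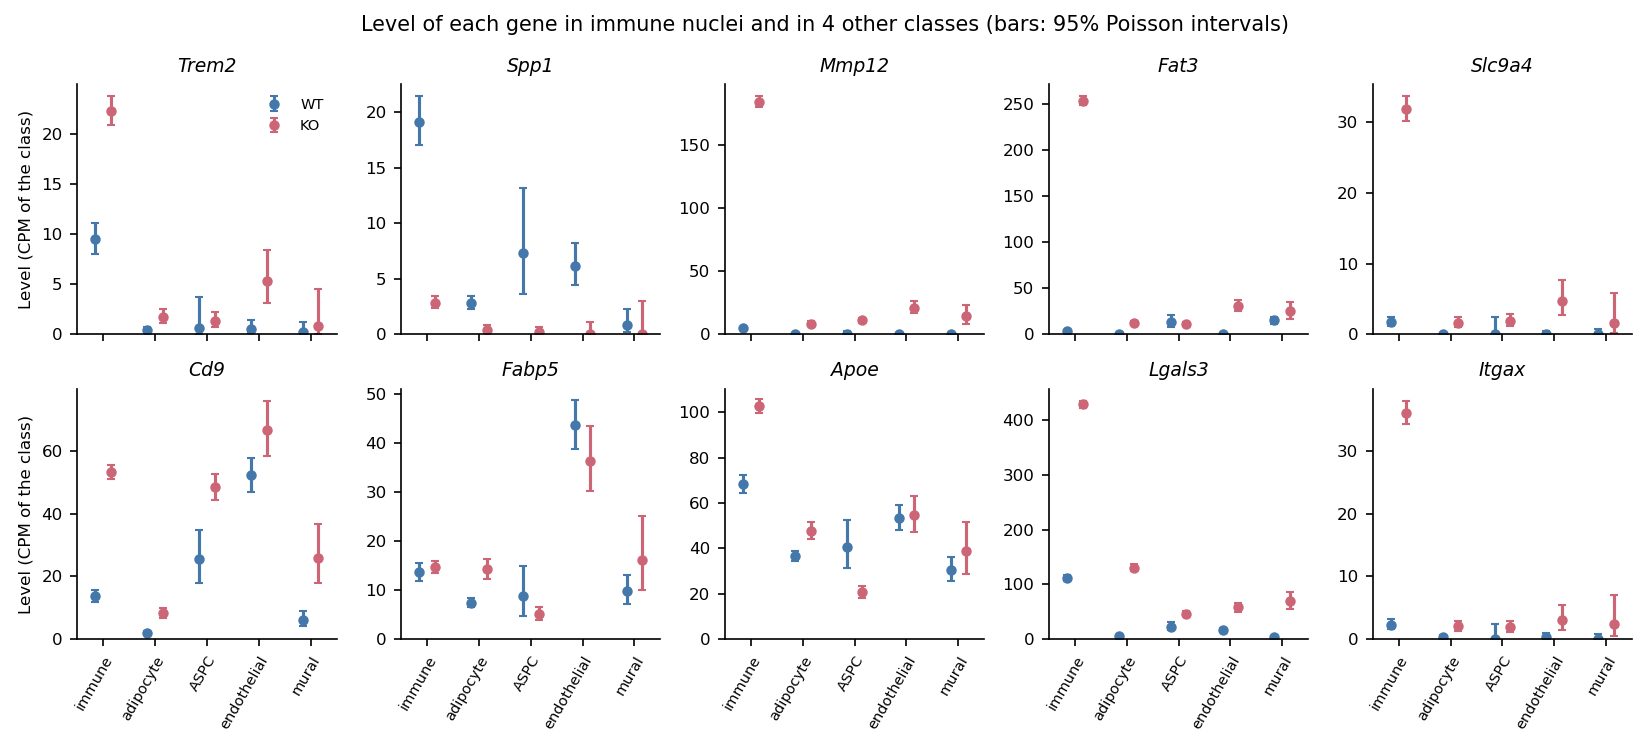
Level in CPM of the class (y axes, each from 0) of each gene in immune, adipocyte, ASPC, endothelial and mural nuclei (x axis) in WT (blue) and KO (red), with exact 95% Poisson intervals as bars. Mmp12, Fat3, Slc9a4 and Itgax stand out in KO immune nuclei, Lgals3 is also at 130.2 CPM in KO adipocytes, and among these 5 classes Cd9 and Fabp5 are highest in endothelial nuclei of both libraries.

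Lists of genes that work beside the 10 were read in the same contrasts. They too were chosen with earlier results known. Of 12 genes listed for TREM2 signalling, 4 were at least 2-fold higher in KO immune nuclei (beside 14.5% of all genes) and none lower (beside 18.8%). Their median log2 ratio was 0.87, against 0.03 for all genes. The list is loose and also holds genes such as Dap, Sirpb1a and Ms4a4a, so its counts are not about that pathway alone. The kinase Syk was at 169 CPM in WT and 491 CPM in KO and the adaptor Tyrobp at 16.2 and 30.2 CPM, a log2 ratio of 0.90. The count differed by subset: in nuclei with Lyve1 or Cd163 only, 9 were higher and none lower (median 1.25), beside 13.3% and 19.1% of all genes. Restricted to macrophage-like clusters, 2 of 11 were higher in that subset and none lower (median 0.70), beside 7.01% and 18.6%, and over all nuclei of these clusters 3 of 12 were higher and none lower (median 0.46), beside 9.25% and 20.7%. Taken singly, cluster 10 had 1 of 12 higher and none lower, cluster 11 none higher and 3 lower, and cluster 12 had 1 of 11 higher. The medians were 0.46, 0.19 and 0.19, beside 0.01, -0.33 and -0.03 for all genes. Shares of all genes at 2-fold are not given for the single clusters, so nothing is read from their counts. In nuclei with Atp6v0d2 only, 2 were higher and 1 lower (median 0.04), beside 10.3% and 20.6%. Between the KO subsets 1 of the 12 was at least 2-fold higher and 1 lower with Atp6v0d2, beside 4.66% and 3.90% of all genes. Tyrobp was at 31.5 CPM with Atp6v0d2 and 35.0 CPM with Lyve1 or Cd163, and Syk at 512 and 502 CPM. The gene past 2-fold higher was Sirpb1a (18.8 against 6.96 CPM), and the one past 2-fold lower Ms4a4a (76.8 against 259 CPM).

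Of 22 genes of the lysosome and of tissue remodelling, 11 were at least 2-fold higher in KO immune nuclei, beside 14.5% of all genes, and none lower, beside 18.8% (median 1.03). In macrophage-like clusters 7 were higher, beside 9.25% (median 0.73). In clusters 10, 11 and 12 taken singly the median log2 ratios were 0.06, 0.14 and 0.27, beside 0.01, -0.33 and -0.03 for all genes. In nuclei with Lyve1 or Cd163 only, 9 were higher and none lower (median 0.79), beside 13.3% and 19.1%, and in those of them in macrophage-like clusters 3 of 21 were higher and 1 lower (median 0.35), beside 7.01% and 18.6%. In nuclei with Atp6v0d2 only, 1 was higher and 3 lower (median 0.01), beside 10.3% and 20.6%. Gpnmb, a glycoprotein of lysosomes, was at 67.9 CPM in WT and 299 CPM in KO and, in KO, at 516 CPM with Atp6v0d2 against 80.2 CPM with Lyve1 or Cd163. The cathepsin Ctss was at 81.7 and 262 CPM and the surface receptor Cd84 at 156 and 503 CPM. Ctsd, Ctsl and Lamp1 had log2 ratios of 0.15, and Ctsz and Lgals1 -0.06 and -0.11. Between the KO subsets 6 of the 22 were at least 2-fold higher with Atp6v0d2, beside 4.66% of all genes (median 0.26).

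Of 18 genes of lipid handling, 3 were at least 2-fold higher and 4 lower in KO immune nuclei (median 0.57), both near the 14.5% and 18.8% of all genes, so the counts are not a result about the list. The 3 were Abcg1, which exports cholesterol (44.6 and 180.1 CPM), Soat1, which esterifies it (58.5 and 173 CPM), and Nceh1, which frees it from its esters (72.4 and 228 CPM). The 4 lower ones, Lpl, Fabp4, Pparg and Dgat2, are also genes of adipocytes. Adipocyte markers summed to 8743 CPM in WT and 3285 CPM in KO immune nuclei, and their part in these 4 genes was not tested. Between the KO subsets 5 of 16 measured were at least 2-fold higher with Atp6v0d2, beside 4.66% of all genes, and none lower: Lipa, the acid lipase of lysosomes (203 against 75.6 CPM), Nceh1, Soat1, Abcg1 and Nr1h3, a sterol sensor. In macrophage-like clusters 10 of 16 were higher and none lower between the KO subsets (median 1.29), beside 7.01% and 6.46% of all genes.

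Tm7sf4, 1 of 13 symbols listed for multinucleation and osteoclasts, was not in the libraries, but it is a former symbol of Dcstamp, which was. The other 12 symbols were in the libraries and 11 were measured. Of these 11, 5 were at least 2-fold higher in KO immune nuclei, beside 14.5% of all genes. Another 2, Acp5 and Car2, were at least 2-fold lower, near the 18.8% of all genes (median of the 11 genes 0.76). In nuclei with Atp6v0d2 only, none of 10 measured was higher and 4 were lower (median -0.42), beside 10.3% and 20.6%, and in nuclei with Lyve1 or Cd163 only, 3 were higher and 2 lower (median 0.82), beside 13.3% and 19.1%. In macrophage-like clusters 4 of 11 were higher and 1 lower (median -0.02), beside 9.25% and 20.7%. Dcstamp, needed for the fusion of osteoclasts, was at 1.12 CPM in WT and 27.0 CPM in KO, and at 34.4 CPM with Atp6v0d2 against 6.63 CPM with Lyve1 or Cd163. Of the 4 MiT/TFE factors, Mitf was at 497 CPM in WT and 1530 CPM in KO, and the other 3 lay within 2-fold, beside 14.5% of all genes higher. In nuclei with Atp6v0d2 only, 2 of the 4 were higher and 1 lower, beside 10.3% and 20.6%. In macrophage-like clusters 2 were higher and none lower, beside 9.25% and 20.7%. Of 6 measured monocyte genes, Fn1 was higher in KO (42.1 and 139 CPM) and Plac8 lower (11.8 and 5.88 CPM), near the shares over all genes.

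Of 16 resident macrophage genes, which include the gate gene Mrc1 but not Lyve1 or Cd163, 2 were at least 2-fold higher and 4 lower in KO immune nuclei (median 0.56), near the 14.5% and 18.8% of all genes. The lower ones were Cd209f, Cd209g, Cbr2 and Vsig4. In nuclei with Lyve1 or Cd163 only, 12 of the 16 were higher in KO and none lower (median 1.39), beside 13.3% and 19.1%, but in those of them in macrophage-like clusters 6 were higher and 2 lower (median 0.89), beside 7.01% and 18.6%. The median was below 0 in each of clusters 10, 11 and 12, as given beside Apoe, though in cluster 11 it was near that of all genes (-0.33). In nuclei with Atp6v0d2 only, 3 of 14 were higher and 3 lower (median 0.30), beside 10.3% and 20.6%, the latter near the share of all genes. Between the KO subsets 15 of the 16 were at least 2-fold lower with Atp6v0d2, beside 3.90% of all genes (median -2.25), as F13a1, a transglutaminase, at 523 against 3315 CPM and Timd4, a receptor for dead cells, at 1.59 against 30.2 CPM. Apoe was lower in the same nuclei, and the other 9 genes were higher there. The reference subset was picked by Lyve1 or Cd163, themselves genes of resident macrophages. Against KO nuclei with neither, 6 of the 16 resident genes were at least 2-fold lower with Atp6v0d2 only and none higher. Their median was then -0.45, beside -0.05 for all genes. The share of all genes at 2-fold is not given for that contrast, so nothing is read from the count. In KO nuclei with Atp6v0d2 only, the T or NK cell markers summed to 154 CPM against 36.3 CPM with Lyve1 or Cd163, of which Il7r gave 117 CPM and 8.95 CPM, and dendritic cell markers to 85.8 against 128 CPM, led by Zbtb46. Their part in the contrast was not tested.

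The genes most like each of the 10 were found over 16 groups of at least 50 nuclei (classes and immune subsets of each library, which share libraries and nuclei depth) by the Pearson correlation of log2(CPM + 10) among 12541 genes. Trem2 was most like Adam8 (r = 0.987), a membrane protease, at 142 CPM in KO nuclei with Atp6v0d2 only and 29.5 CPM in those with Lyve1 or Cd163 only, followed by Mfsd12 and Rnf128. Mmp12 was most like Matk (0.956) and Fat3 like Myh15 (0.958), a myosin heavy chain at 62.5 and 10.1 CPM in these subsets. Slc9a4 was most like the channel Aqp9 (0.981) and Itgax like Gm17749 (0.981), which was also second for Mmp12. Apoe was most like Pf4 (0.947) and the complement gene C1qa (0.935), at 29.5 CPM with Atp6v0d2 and 156 CPM with Lyve1 or Cd163. Spp1 had the weakest best match, Cd300lf (0.868), followed by Il1b (0.850). Lgals3 was most like Tet3 (0.958), Cd9 like Wsb2 (0.964) and Fabp5 like Itga6 (0.941).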

How the data were processed

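Nuclei of BAT were measured by droplet single-nucleus RNA-seq in 1 WT and 1 KO library. The values are whole UMI counts for every gene in each barcode, not normalized, as deposited by the authors. The submitters' processing notes name Cell Ranger 5.0.0, Seurat 3.1.1 and mm10, and whether intronic reads were counted is not given in the sources used here.

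Of 24341 barcodes, 24149 nuclei were kept (at least 200 genes, within 3 median absolute deviations, under 10% mitochondrial UMIs). Counts were summed per library and group and given as CPM with exact Poisson intervals, ratios with exact conditional binomial intervals and shares with Clopper-Pearson intervals, at 95%, for counting error only. A count of 0 was bounded at 3 counts per group. No test was made. Ratios were read at 2-fold over genes with at least 20 UMIs in all. Droplets of 1000 or more UMIs were thinned to 1000 for shares at matched depth.

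Nuclei were clustered with scanpy 1.11.5 (2000 variable genes, 30 components, 15 neighbours, Leiden resolution 0.5) in Python 3.11.15. A cluster name required at least 3 markers over 1.5-fold, a rule settled after the clusters were seen. Not every cluster with that many markers found was named. Cluster 3 (closest to macrophage, 6 found) and cluster 9 (closest to endothelial, 7 found) were left unnamed, so cluster 3 was not counted as macrophage-like. Doublets were kept and scored with Scrublet. The 10 genes, the lists and the named genes (the 10, the gate, split and list genes, Srsf1, the genes most extreme in a contrast and the 3 most like each of the 10) were chosen with earlier results of these data known; Sirpb1a, Tyrobp, Ms4a4a and other list genes quoted were picked from their lists after their values were seen. The sign of the log2 ratio and the coverage of its interval were checked on simulated Poisson counts. Those counts vary independently. The check therefore does not cover the 2-fold calls or genes whose UMIs are held by few nuclei. Alternatives varied the gate, filters, depth, doublets, scaling, background and threshold; the restriction to macrophage-like clusters and the removal of called doublets were added after the data had been seen.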

Additional observations from a re-analysis of the deposited data

Results flagged for a closer look

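Apoe went in opposite directions in the 2 immune subsets. Its log2 ratio of KO over WT was 1.73 (1.60 to 1.86) in nuclei with Lyve1 or Cd163 only, at 245 against 74.0 CPM, and -0.49 (-0.93 to -0.01) in nuclei with Atp6v0d2 only, at 59.5 against 83.3 CPM. The difference was not tested, since there was 1 library per genotype, and the WT Atp6v0d2 subset held 47 nuclei and 43 UMIs of Apoe. In nuclei with Lyve1 or Cd163 only, 12 of 16 resident macrophage genes were also at least 2-fold higher in KO (median log2 ratio 1.39), beside 13.3% of all genes. In macrophage-like clusters 6 of the 16 were higher and 2 lower in that subset (median 0.89), beside 7.01% and 18.6%. In clusters 10, 11 and 12 taken singly, over all their immune nuclei, the median was -0.36, -0.33 and -0.53, beside 0.01, -0.33 and -0.03 for all genes. In all nuclei with Lyve1 or Cd163 only, the 8 macrophage markers summed to 2206 CPM in WT and 5344 CPM in KO, the 5 resident macrophage markers to 1634 and 4119 CPM and the 8 adipocyte markers to 8713 and 2669 CPM. Their part in the result was not tested. In macrophage-like clusters Apoe was 2.84-fold higher in KO in the former (log2 interval 1.33 to 1.68), and its log2 ratio in the latter was -0.32 (-0.91 to 0.33), an interval that included 0.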

How the results depend on the processing

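No paired analysis was possible because there was 1 library per genotype and the labels give no replicate numbers. The share of immune nuclei with Atp6v0d2 depended on the settings. In WT it was 5.78% with the gate at 2 UMIs, 4.95% with the gate at 1 per 1000 UMIs, 3.07% after thinning and 4.95% when 2 UMIs were required. In KO it was 41.0% with the gate at 2 UMIs, 50.6% at 8 UMIs, 44.1% at 1 per 1000 UMIs, 45.8% by Leiden cluster, 44.9% without nuclei with adipocyte transcripts, 23.7% after thinning, 49.8% in macrophage-like clusters, 45.4% without called doublets and 34.2% when 2 UMIs were required. The share was higher in KO than in WT under each of these. At a 4-fold threshold 4 of the 10 genes were higher in KO (beside 3.96% of all genes) and 5 with Atp6v0d2 (beside 1.18%). Under the other alternatives run, 5 to 8 were higher in KO (beside 7.46% to 39.5%) and 8 to 9 with Atp6v0d2 (beside 4.28% to 20.8%), both shares highest with the endothelial level subtracted. The log2 ratio of Apoe for KO over WT turned to -0.012 with the gate at 1 per 1000 UMIs and -0.63 without nuclei with adipocyte transcripts. That of Trem2 ranged from 0.02 to 1.83 and that of Lgals3 from 0.60 to 2.43, both lowest without those nuclei, as were Slc9a4 (2.60 to 4.72) and Fabp5 (-1.20 to 0.31, past 2-fold lower). That of Itgax ranged from 2.26 after thinning to 4.49 without called doublets, and that of Cd9 from 1.77 to 2.49. The cause was not tested. Mmp12 (4.49 to 6.35), Fat3 (5.09 to 6.67) and Spp1 (-3.30 to -2.00) kept their direction in every alternative run. Between the KO subsets, Atp6v0d2 over Lyve1 or Cd163, the log2 ratio ranged from 3.16 to 6.10 for Mmp12 and 2.35 to 4.57 for Fat3. The range was 1.77 to 4.31 for Cd9, 1.52 to 2.95 for Trem2 and 2.56 to 6.72 for Spp1. For Slc9a4 it was 1.18 to 2.21, for Itgax 3.14 to 4.10, for Lgals3 1.99 to 2.54 and for Fabp5 0.77 to 2.15. Apoe stayed lower with Atp6v0d2, at -5.32 to -1.97. With the endothelial level subtracted, Cd9 and Fabp5 gave no KO over WT ratio, and thinning gave none for Spp1 between the KO subsets.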
